A study of Homo sapiens with 60 samples.

Results

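The genes followed here encode selenoproteins, proteins that carry the amino acid selenocysteine. Under the older symbols used in the count table they are SEPP1 (now SELENOP), GPX1, GPX2, GPX4, SEPW1 (now SELENOW) and SEPHS2, which makes 6 of 29744 genes. They were taken by symbol and chosen by a measured value, the lower level of SEPP1 with kynurenic acid than without it in Medium 2. The values of all 6 genes in that contrast, and every value of SEPP1 that shares its libraries, are therefore given as a description with no test. Of the 6 genes, 5 were kept by the filter on low counts and tested among 11298 genes, while GPX2 did not pass.

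RNA came from spheroids of HCT116, 1 established human colorectal cancer line, grown in agarose wells. In each of 2 media, named Medium 2 and Medium 1 by the labels, spheroids received kynurenic acid at 1 µM, kynurenine at 1 µM, hemin at 0.1 µM together with kynurenine at 1 µM, hemin at 0.1 µM, butyrate at 1 µM, or no compound, between day 1 and day 8. Each of the 12 groups has 5 libraries, 60 in all. Per the series design, spheroids were sampled at once or after 3 h in a nutrient-poor medium, and the labels do not say which of the 2 media that is. Tryptophan is broken down to kynurenine and on to kynurenic acid, hemin is oxidised haem with its iron, and butyrate is a product of gut bacteria that ferment fibre. The labels give 1 growth medium with serum for all samples, and its selenium content is not given in these sources.

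Each library is a count of transcript 3' ends with unique molecular identifiers, and levels are in CPM, counts per 1000000 after scaling of library sizes. A library held between 1346135 and 3083231 counts, and the median was 1901981. Libraries of Medium 2 and Medium 1 lie in separate parts of the plate, so medium and plate position cannot be told apart. Each group also fills 5 consecutive wells, so compound and plate position cannot be told apart either. The libraries in wells A7 (kynurenine, Medium 2) and B2 (butyrate, Medium 1) lay farthest from their group means. The epithelial markers EPCAM, CDH1, KRT8, KRT18 and KRT19 were present in every library. Of 11 markers of fibroblasts, leukocytes, endothelium and hepatocytes in the table, 3 (COL1A2, CD3E and TTR) were at 0 counts throughout and only COL1A1 was frequent enough to test. Their summed level ran from 1.96 to 11.3 CPM in Medium 2 and from 6.11 to 18.0 CPM in Medium 1, with COL1A1 at 3.98 ± 2.26 CPM in Medium 2 and 9.21 ± 2.48 CPM in Medium 1 over the exposures other than kynurenic acid (SD, n = 20 each). Between media over those 4 exposures, CDH1 was higher in Medium 2 (log2 fold change 0.29) and KRT19 (-0.25) and COL1A1 (-1.21) lower by edgeR's test. In that contrast 39% of all genes tested passed. Of the 5 epithelial markers and COL1A1, those that passed with single compounds were CDH1 with butyrate (0.66), KRT19 with kynurenine (-0.39), KRT18 (0.40) and COL1A1 (-1.71) with hemin and kynurenine, and COL1A1 with kynurenic acid (-1.22). With hemin KRT8 (0.42), KRT19 (-0.38) and COL1A1 (-1.27) passed. Of all genes tested, 9.89% passed with butyrate, 8.01% with kynurenine and 8.56% with kynurenic acid. The share was 16.3% with hemin and kynurenine and 23.9% with hemin. The part of these markers in the results was not tested.

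Selenocysteine is written into messenger RNA as UGA, which is a stop codon elsewhere. A hairpin in the 3' untranslated region of a selenoprotein transcript, the SECIS element, recruits the proteins that let the ribosome insert selenocysteine there. Selenium supply is known to set how much of several selenoproteins is made, partly through decay of their transcripts, and GPX1 is among the most sensitive. SEPP1 encodes a secreted carrier that takes selenium to other cells, and is made mostly by liver. GPX1, GPX2 and GPX4 are glutathione peroxidases: GPX1 is cytosolic and mitochondrial, GPX2 is the form of the gut epithelium, and GPX4 reduces lipid peroxides in membranes and restrains ferroptosis. SEPW1 is a small thioredoxin-like protein of poorly known function. SEPHS2 makes selenophosphate, the selenium donor for selenocysteine, and is a selenoprotein itself.

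The codon that makes these 6 genes a family is printed here in the coding strand, with 12 bases on each side in lower case and the selenocysteine codon in capitals (written TGA, as DNA). The windows are from GENCODE v29 on GRCh38, and those of SEPP1 show its first and its second selenocysteine codon.
SEPP1 codon 59: cttcaagccagcTGAtacctgtgcata
SEPP1 codon 300: gctcctaggagcTGAtgctgccattgt
GPX1 codon 49: gtggcgtccctcTGAggcaccacggtc
GPX2 codon 40: gtggcttcgctcTGAggcacaaccacc
GPX4 codon 73: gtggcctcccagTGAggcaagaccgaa
SEPW1 codon 13: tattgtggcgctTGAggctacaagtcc
SEPHS2 codon 60: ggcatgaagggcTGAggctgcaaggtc

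SEPP1 has 10 annotated selenocysteine codons among 381 codons, whereas each of the other 5 genes has 1. The first of SEPP1 lies at chr5:42808177-42808179 on the minus strand, in exon 2 of 5, and the last at chr5:42800732-42800734 in exon 5, only a few codons before the end of the reading frame. The codon of GPX1 is at chr3:49358132-49358134 in exon 1 of 2, on the minus strand. That of GPX2 is at chr14:64942607-64942609 in exon 1 of 2, on the minus strand. GPX4 has it at chr19:1105403-1105405 in exon 3 of 7, on the plus strand. SEPW1 has it at chr19:47780732-47780734 in exon 2 of 6, on the plus strand. The codon of SEPHS2 is at chr16:30445548-30445550, on the minus strand, in a gene of 1 exon. On the opposite strand SEPP1 overlaps CCDC152, which had 3 counts in all libraries together, and GPX2 overlaps CHURC1, which had 19123. Against these, SEPP1 had 724 counts and GPX2 had 3. Whether the authors counted by strand is not known, and whether reads of such pairs were mixed was not tested.

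SEPP1, the selenium carrier, stood highest in untreated spheroids of Medium 2 and was lower there with every compound. With kynurenic acid in Medium 2 its levels were 5.30, 4.59, 6.44, 2.62 and 4.02 CPM, against 18.1, 8.58, 13, 13.9 and 11.9 CPM in untreated spheroids of Medium 2. The highest kynurenic acid library was thus below the lowest untreated one, as plotted for every library of SEPP1. This is the contrast that chose the genes: the log2 fold change was -1.53 (SE 0.31), a fold of 0.346, from 39 counts with kynurenic acid and 115 without in 5 libraries each. In this contrast 0.0177% of the genes tested passed the threshold, and for 0.876% all libraries of the exposed group lay below all untreated ones. For the other members, also with no test, the log2 fold change was 0.02 (SE 0.15) for GPX1 and -0.57 (SE 0.29) for GPX4. It was 0.24 (SE 0.18) for SEPW1 and -0.12 (SE 0.16) for SEPHS2, and GPX2 had 0 counts with kynurenic acid and 1 without. In bulk RNA, fewer cells that express SEPP1 and less SEPP1 RNA per cell cannot be told apart.

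The other compounds in Medium 2 were set against the same 5 untreated libraries, so their values are not independent of that contrast. With kynurenine SEPP1 had 4.55, 8.31, 11.9, 9.38 and 7.31 CPM, a log2 fold change of -0.66 (SE 0.28) from untreated, and the groups overlapped. With hemin and kynurenine it had 8.30, 5.11, 6.53, 5.62 and 8.86 CPM, a log2 fold change of -0.93 (SE 0.28), and its highest library lay just above the lowest untreated one. With hemin alone it had 4.57, 4.64, 5.37, 6.18 and 7.29 CPM, a log2 fold change of -1.22 (SE 0.31), and all 5 libraries lay below every untreated one, as for 0.832% of all genes. In the hemin contrast 0% of all genes tested passed. With butyrate it had 6.19, 6.88, 7.83, 15.5 and 7.60 CPM, a log2 fold change of -0.59 (SE 0.28), with 1 library inside the untreated range and 4 below it. Set beside kynurenine at the same dose in Medium 2, kynurenic acid gave a log2 difference of -0.87 (SE 0.32) in SEPP1, with overlapping groups.

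In Medium 1, whose libraries the choice of genes did not use, SEPP1 was low in all groups and did not pass the test with any compound. It was kept by the filter over all 12 groups, which include the Medium 2 groups where it was higher. In fits of only the compared Medium 1 groups, SEPP1 failed the filter with kynurenic acid, with butyrate, and with hemin and kynurenine. Those tests therefore exist only in the fit of all groups. With kynurenic acid it had 5.80, 2.99, 3.1, 3.22 and 8.66 CPM, against 5.36, 2.26, 3.67, 4.24 and 6.15 CPM in untreated spheroids of Medium 1. The groups overlapped, and the highest kynurenic acid library lay above all untreated ones. The log2 fold change was 0.15 (SE 0.34, 95% interval -0.53 to 0.82), with a p of 0.999 in edgeR's quasi-likelihood test after Benjamini-Hochberg adjustment over all tested genes, the method behind every adjusted p given here. The difference between the media of the kynurenic acid response, -1.68 (SE 0.46), uses the libraries that chose the genes and carries no test. Without the highest kynurenic acid library (well H3) the Medium 1 value was -0.20, and without the lowest untreated library (well B1) it was -0.03. By edgeR's test 0% of the 11298 genes passed in this contrast, and 369 had an unadjusted p under 0.05. With kynurenine the log2 fold change from untreated in Medium 1 was 0.20, with hemin and kynurenine 0.12, with hemin 0.31 and with butyrate -0.14. Kynurenic acid and kynurenine at the same dose in Medium 1 differed by -0.05 (SE 0.33, 95% interval -0.72 to 0.61, edgeR adjusted p = 0.9998) in log2 SEPP1, where 0.0354% of all genes passed.

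**Figure D1:**
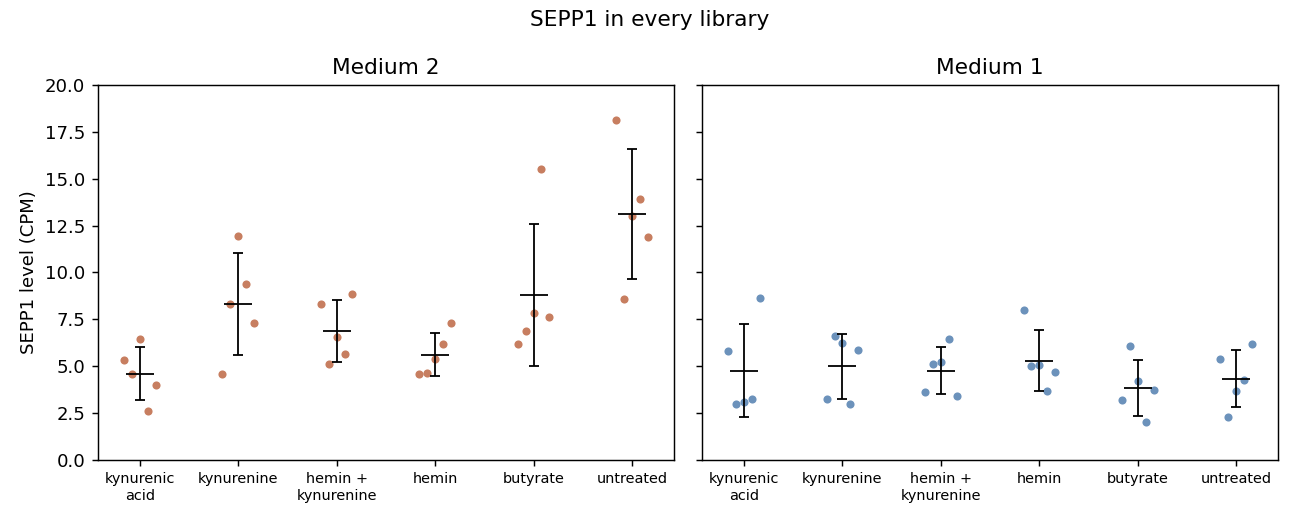
SEPP1 level in CPM (vertical axis) in each of 60 libraries (points), by compound, in Medium 2 (left) and Medium 1 (right), with the mean and SD of each group of 5. Untreated Medium 2 libraries sit between 8.58 and 18.1 CPM, above all 5 kynurenic acid libraries of Medium 2 at 2.62 to 6.44 CPM, while all groups of Medium 1 share a range of 2.01 to 8.66 CPM.

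SEPP1 was higher in Medium 2 than in Medium 1 also where the untreated and kynurenic acid libraries were left aside. Over kynurenine, hemin with kynurenine, hemin and butyrate together it averaged 7.40 ± 2.66 CPM in Medium 2 and 4.71 ± 1.52 CPM in Medium 1 (SD, n = 20 each). The log2 fold change was 0.62 (SE 0.16, edgeR adjusted p = 0.00122), and the ranges overlapped. Of all genes tested, 39% passed in this contrast, 19.3% higher and 19.7% lower in Medium 2, so a pass is common here. With butyrate the log2 fold change between media was 1.14 (SE 0.31, edgeR adjusted p = 0.0119), from the 5 values of Medium 2 above against 3.17, 6.06, 4.19, 2.01 and 3.72 CPM in Medium 1. All 5 Medium 2 libraries with butyrate lay above those of Medium 1, as for 3.85% of all genes, in a contrast in which 9.89% of genes passed and 4.51% were higher. Without its highest library (well G5) the butyrate value was 0.86, with an edgeR adjusted p of 0.0893.

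For the other compounds SEPP1 did not pass between media. With kynurenine the log2 fold change, Medium 2 over Medium 1, was 0.73 (SE 0.31, edgeR adjusted p = 0.143), where 8.01% of genes passed. With hemin and kynurenine it was 0.55 (SE 0.31, edgeR adjusted p = 0.221), where 16.3% passed. With hemin alone it was 0.06 (SE 0.33, 95% interval -0.60 to 0.72), where 23.9% passed, and the Medium 1 values of 8.00, 4.99, 5.08, 3.67 and 4.66 CPM spanned the whole Medium 2 range. For untreated spheroids the value was 1.59 (SE 0.31) with no overlap, where 6.38% of genes passed and 3.99% lay wholly higher, and for kynurenic acid it was -0.08 (SE 0.34), where 8.56% passed. Both share libraries with the contrast that chose the genes and carry no test. Over the 12 groups the order of SEPP1 means began with untreated Medium 2 at 13.1 ± 3.47 CPM, butyrate in Medium 2 at 8.80 ± 3.80 CPM and kynurenine in Medium 2 at 8.30 ± 2.72 CPM (SD, n = 5 each). It ended with untreated Medium 1 at 4.34 ± 1.51 CPM and butyrate in Medium 1 at 3.83 ± 1.49 CPM. Each group's range overlapped that of its neighbour in this order, and the 8 lowest means lay between 3.83 and 5.61 CPM. SEPP1 rested on few molecules, 4 to 33 counts per library and 724 in all 60, which limits the precision of each value.

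GPX1, the peroxidase of cytosol and mitochondria, was higher in Medium 2 than in Medium 1 when the 4 exposures were pooled. Over these exposures it averaged 53.5 ± 8.87 CPM in Medium 2 and 43 ± 9.13 CPM in Medium 1 (SD, n = 20 each), a log2 fold change of 0.32 (SE 0.08, edgeR adjusted p = 0.000499). With hemin and kynurenine it had 59.2, 55.4, 61.5, 39.8 and 61.6 CPM in Medium 2, against 50.5, 46.5, 35.4, 39.3 and 27.4 CPM in Medium 1. In this pair 4 of 5 Medium 2 libraries were above all those of Medium 1, and the log2 fold change was 0.48 (SE 0.15, edgeR adjusted p = 0.0195), where 8.02% of all genes were higher. With hemin alone it had 51.1, 59, 77.8, 45.5 and 45.3 CPM in Medium 2, against 41.9, 34.9, 36.5, 38.5 and 50.2 CPM in Medium 1. The log2 fold change was 0.47 (SE 0.15, edgeR adjusted p = 0.0205), where 12.6% of all genes were higher, with 1 library of Medium 1 (well G2) inside the Medium 2 range.

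With kynurenine the value of GPX1 between media was 0.18 (SE 0.15, edgeR adjusted p = 0.53) and with butyrate 0.16 (SE 0.15, edgeR adjusted p = 0.559), and neither passed. Nor did GPX1 pass with kynurenic acid (0.29, SE 0.15, edgeR adjusted p = 0.242), where 8.56% of all genes passed. With that compound GPX4 (-0.50), SEPW1 (0.31) and SEPHS2 (0.05) did not pass between media either. Both single-compound calls of GPX1 depended on individual libraries. The hemin call was lost without any of wells C6, D2 or E2, with values of 0.32, 0.42 and 0.43. The call for hemin with kynurenine was lost without any of wells A8, H7, D4 or F4, with values between 0.36 and 0.45. The value over the 4 exposures stayed between 0.29 and 0.36 when each of its 40 libraries was left out, and passed each time. In untreated spheroids GPX1 had 55.5, 44.2, 46.4, 54.7 and 61.5 CPM in Medium 2, against 50.7, 45.2, 52, 58.7 and 52.3 CPM in Medium 1, with a log2 fold change of 0.03 (SE 0.15, 95% interval -0.28 to 0.33). Within Medium 1 its mean was 39.8 ± 9.09 CPM with hemin and kynurenine and 40.4 ± 6.09 CPM with hemin, against 51.8 ± 4.81 CPM in untreated spheroids (SD, n = 5 each). These differences, -0.38 and -0.36 in log2, had edgeR adjusted p of 0.95 and 0.156 and did not pass. The difference between media of the hemin response of GPX1 was 0.44 (SE 0.22, edgeR adjusted p = 0.362), which did not pass either.

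GPX2, the gut form, was close to absent. It had 3 counts in all, 1 each in an untreated, a hemin and a kynurenine library of Medium 2, and 0 counts in the 30 libraries of Medium 1. The 0 counts allow a level of up to 0.0502 CPM over the pooled Medium 1 libraries, taking 3 counts as the limit, which covers counting error only. No comparison of GPX2 between groups was detectable at this depth.

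GPX4, the peroxidase of membrane lipids, had wide spread between libraries and passed in no contrast. Over the 4 exposures it averaged 26.1 ± 10.5 CPM in Medium 2 and 24.1 ± 7.14 CPM in Medium 1 (SD, n = 20 each), a log2 fold change of 0.09 (SE 0.14, edgeR adjusted p = 0.631). The sign of that value turned, to -0.01, without the libraries in wells B2 and A7. With hemin it had 41.9, 41.1, 42.3, 21.3 and 14.6 CPM in Medium 2, against 15.2, 17.8, 20.3, 22 and 29 CPM in Medium 1. In Medium 2 the hemin libraries thus fell into 3 high and 2 low ones, and the low ones were inside and just below the Medium 1 range. The log2 fold change between media with hemin was 0.64 (SE 0.28, edgeR adjusted p = 0.0911), and of the fits with 1 library left out it passed in those without well E6 (0.80) or well G2 (0.77). With kynurenic acid in Medium 2 GPX4 had 20.7, 21, 15.7, 23.5 and 18.6 CPM, against 30.8, 24.4, 21.6, 19.3 and 51.3 CPM in untreated spheroids of Medium 2. The log2 fold change of -0.57 (SE 0.29) carries no test, and was -0.27 at its smallest with 1 library left out.

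SEPW1, the small thioredoxin-like protein, passed in 1 contrast, and there it was lower in Medium 2. With hemin it had 107, 105, 103, 110 and 103 CPM in Medium 2, against 183, 188, 156, 206 and 91.1 CPM in Medium 1. The Medium 2 libraries lay close together, and 4 of the 5 Medium 1 libraries were far above them. The log2 fold change, Medium 2 over Medium 1, was -0.64 (SE 0.18, edgeR adjusted p = 0.00772), where 11.4% of all genes were lower. It ran from -0.81 to -0.56 when each library was left out, and passed each time. Over the 4 exposures SEPW1 averaged 123 ± 25 CPM in Medium 2 and 135 ± 41.9 CPM in Medium 1 (SD, n = 20 each), a log2 fold change of -0.13 (SE 0.09, edgeR adjusted p = 0.251). With hemin and kynurenine the value between media was 0.29, with kynurenine 0.11 and with butyrate -0.28, none past the threshold.

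Against untreated spheroids of the same medium SEPW1 did not pass. Its mean in Medium 1 was 165 ± 44.9 CPM with hemin and 117 ± 9.15 CPM untreated (SD, n = 5 each), a log2 fold change of 0.49 (SE 0.18, edgeR adjusted p = 0.103). Without the low hemin library in well G2 that value was 0.65, with an edgeR adjusted p of 0.0147. In Medium 2 SEPW1 had 127, 121, 138, 162 and 189 CPM with hemin and kynurenine, against 101, 112, 106, 118 and 116 CPM untreated. These groups did not overlap, as for 2.2% of all genes in this direction, in a contrast in which 0.558% of genes passed, and the log2 fold change of 0.42 (SE 0.18, edgeR adjusted p = 0.279) did not pass. The 6 highest SEPW1 libraries, wells B2, F2, H7, D2, F4 and C2, had 183 to 232 CPM, against 81.7 to 170 CPM in the other 54. Of these, 5 are libraries of Medium 1, and B2 is 1 of the 2 farthest from their group mean. The first principal component of the tested genes is the main axis of spread between libraries. On it all libraries of Medium 1 had negative values, from -42.6 to -0.088. Those of Medium 2 had positive values except well A7 at -13.5, so the sign mostly follows the medium. The 5 Medium 1 libraries high in SEPW1 lay at -42.6 (F2), -37.4 (F4), -35.1 (D2), -31.2 (B2) and -25.7 (C2), and H7 of Medium 2 at 10.9. The hemin libraries of Medium 1 with less SEPW1, wells E2 and G2, lay at -19.5 and -16.2. Wells G1 and F3 of Medium 1 lay at -31.0 and -26.9, with 141 and 138 CPM of SEPW1. The part of this axis in the SEPW1 values was not tested.

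SEPHS2, the selenophosphate synthetase, did not pass in any contrast. Over the 4 exposures it averaged 48.3 ± 8.43 CPM in Medium 2 and 46.7 ± 8.21 CPM in Medium 1 (SD, n = 20 each), a log2 fold change of 0.06 (SE 0.08, 95% interval -0.09 to 0.21). That interval holds no change larger than 0.21 in log2 in either direction. In Medium 1 with butyrate it had 38, 34.9, 54.5, 43.3 and 37.2 CPM, against 43.4, 55.6, 47.7, 56.9 and 54.9 CPM in untreated spheroids. The groups overlapped through 1 butyrate library, and the log2 fold change of -0.32 (SE 0.15, edgeR adjusted p = 0.577) did not pass.

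**Figure D2:**
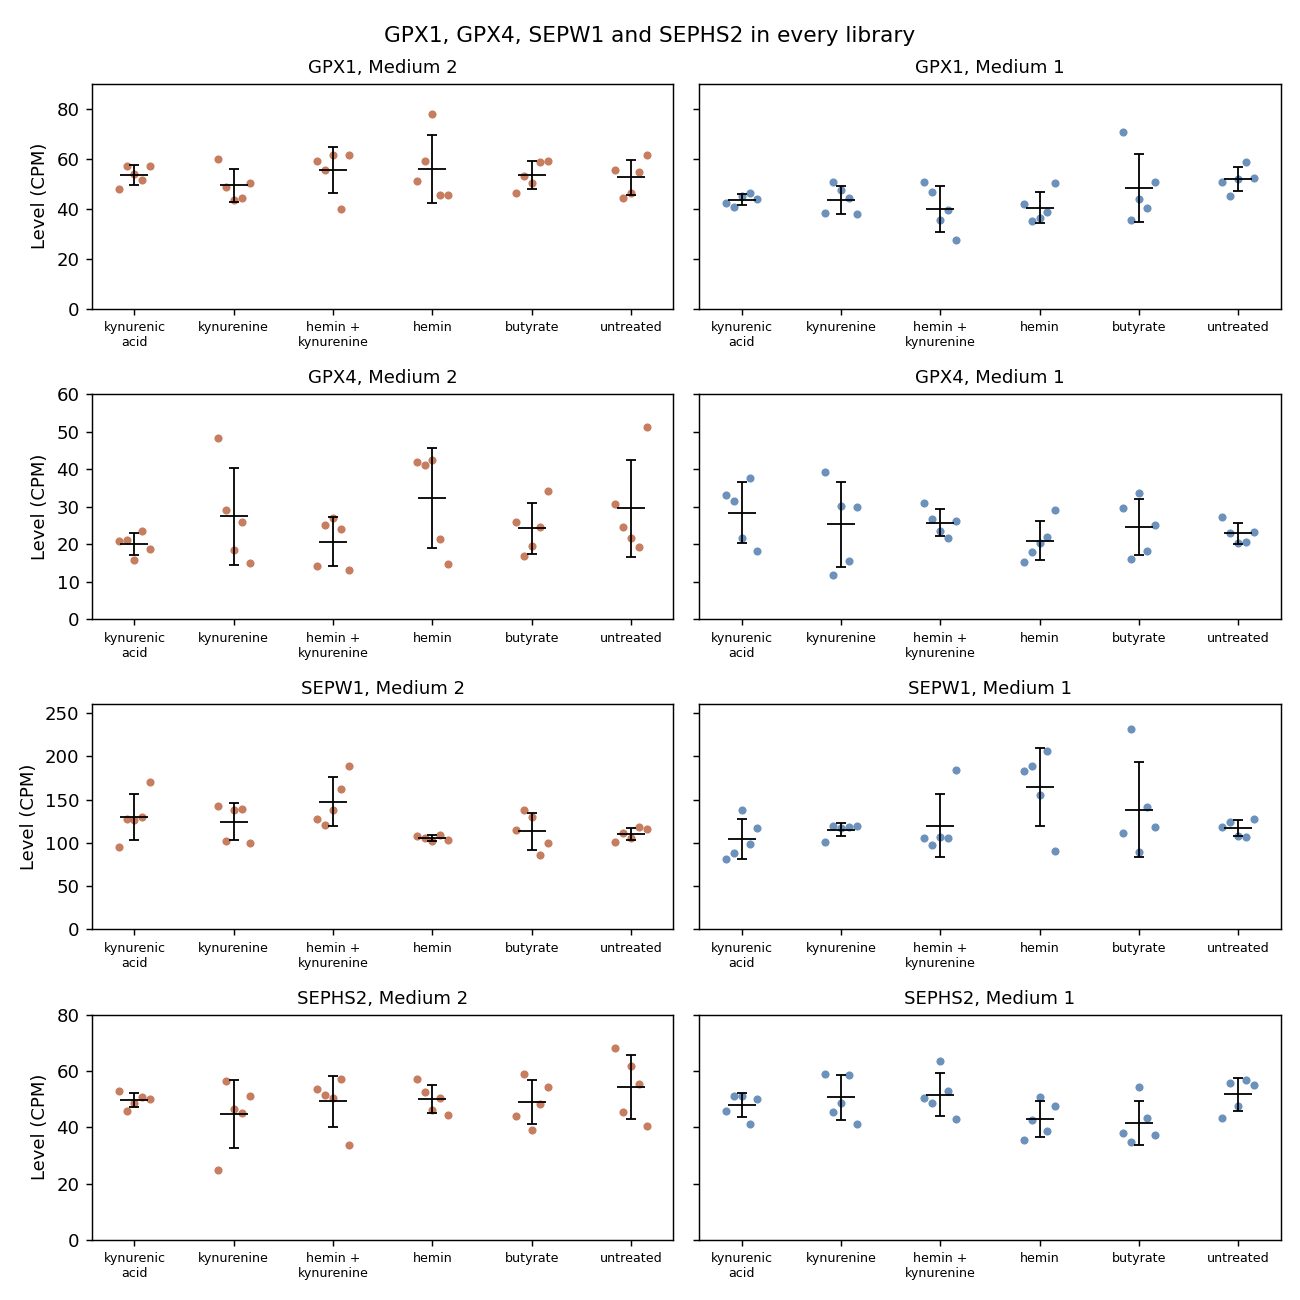
Levels of GPX1, GPX4, SEPW1 and SEPHS2 in CPM (vertical axes) in each library (points), by compound, in Medium 2 (left) and Medium 1 (right), with the mean and SD of each group of 5. SEPW1 with hemin lies at 103 to 110 CPM in Medium 2 and at 91.1 to 206 CPM in Medium 1, and GPX4 spreads from 11.7 to 51.3 CPM over all libraries.

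In all, the tested genes were compared 41 times with untreated spheroids of the same medium. By edgeR's quasi-likelihood test 0 passed, with 5 unadjusted p under 0.05 and a lowest adjusted p of 0.103. Of the 5, GPX1 and SEPW1 with hemin in Medium 1 fell where 21.5% of all genes had such a p. For SEPW1 with hemin and kynurenine in Medium 2 that share was 13.6%. It was 8.54% for SEPHS2 with butyrate in Medium 1 and 4.97% for GPX1 with hemin and kynurenine in Medium 1. Few genes of any kind passed the adjusted threshold against untreated spheroids. In Medium 2 the share was 0.0177% with kynurenic acid, 0.0266% with kynurenine, 0.558% with hemin and kynurenine, 0% with hemin and 0% with butyrate. In Medium 1 it was 0% with kynurenic acid, 0.0354% with kynurenine, 0.0266% with hemin and kynurenine, 0.133% with hemin and 0.00885% with butyrate. Of 16 tests of whether a response differed between media, which leave out SEPP1 and kynurenic acid, 0 passed, 3 had an unadjusted p under 0.05, and the lowest adjusted p was 0.341. Those 3 fell with hemin (GPX1 and SEPW1), where 13.3% of all genes had such a p, and with hemin and kynurenine (GPX1), where 8.68% had. In the response differences 0% of all genes passed for butyrate and for hemin, 0.0177% for kynurenine and 0.0266% for hemin with kynurenine. Over the same 41 and 16 tests DESeq2 also made 0 calls.

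**Figure D3:**
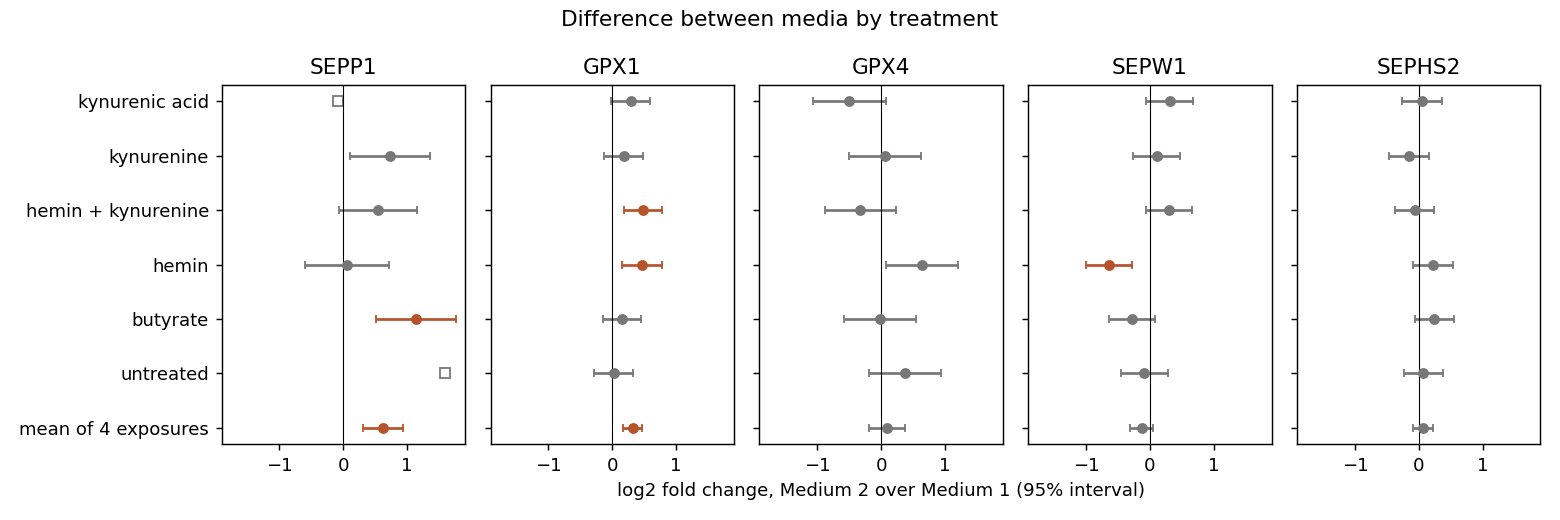
Log2 fold change of Medium 2 over Medium 1 (horizontal axis) for each tested gene with each compound, untreated and averaged over 4 exposures, with 95% intervals. Coloured points passed the threshold, grey ones did not, and open squares are SEPP1 values with no test. Averaged over 4 exposures SEPP1 (0.62) and GPX1 (0.32) passed. With single treatments SEPP1 passed with butyrate (1.14), GPX1 with hemin and with hemin plus kynurenine (0.47 and 0.48), and SEPW1 with hemin (-0.64).

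Between media, over the 4 exposures, 2 of the 5 tested genes passed and both were higher in Medium 2, a share close to the 39% of all genes that passed in either direction. All 25 genes of a list of human selenoproteins, which was written with earlier results of these data known, were in the table, 17 were tested and 3 (GPX3, GPX6 and SELV) had 0 counts in every library. Of the 17, 5 were higher in Medium 2 over the 4 exposures and 12 did not pass, against 19.3% of all genes higher and 19.7% lower, and the median log2 fold change was 0.13 against -0.01 over all genes. Besides SEPP1 and GPX1, TXNRD1, the cytosolic thioredoxin reductase, was higher by 0.37 (SE 0.09). SEP15, which works in glycoprotein folding in the endoplasmic reticulum, was higher by 0.34 (SE 0.10), and SELT, another endoplasmic reticulum selenoprotein, by 0.23 (SE 0.09). With hemin alone 2 of 17 were higher (GPX1, and TXNRD1 at 1.01) and 2 lower (SEPW1, and the methionine sulfoxide reductase MSRB1 at -0.61), shares close to the 12.6% and 11.4% of all genes. With 1 library left out each of these counts ran from 1 to 3, and 1 was higher without well D2, E2 or C6 and 1 lower without well C2. With hemin and kynurenine GPX1 and SELT (0.58) were higher, where 8.02% of all genes were. Without well H7 that count of 2 was 0, and without well D4, F4 or A8 it was 1. With kynurenic acid SELK was higher (0.41), where 4.3% of all genes were, and the count of 1 was 0 without well A4, G3, D7 or G7 and with no filter on low counts. With butyrate SEPP1 was higher, where 4.51% of all genes were, a count of 1 that was 0 without well G5 and 2 without well A2. Against untreated spheroids, SEPP1 in Medium 2 and the whole kynurenic acid contrast of Medium 2 were left aside. In the rest 0 genes of the family passed by edgeR's quasi-likelihood test. For hemin in Medium 1 this count depended on the fit. It ran from 0 to 2 higher and from 0 to 1 lower with 1 library left out. In 3 of 5 other alternatives, DESeq2 among them, 1 gene was lower there. At an unadjusted p under 0.05 there were 3 higher and 2 lower of 17 with hemin in Medium 1, against 10.4% and 11.1% of all genes. With hemin and kynurenine in Medium 2 there were 3 higher and 1 lower of 16, against 7.47% and 6.15% of all genes. In each of the other contrasts counted there were 0 or 1 in either direction. Against untreated spheroids and with the same values again left aside, DESeq2 called 1 gene of the family, TXNRD1 with hemin in Medium 1, at a log2 fold change of -0.67 (DESeq2 adjusted p = 0.0251).

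**Figure D4:**
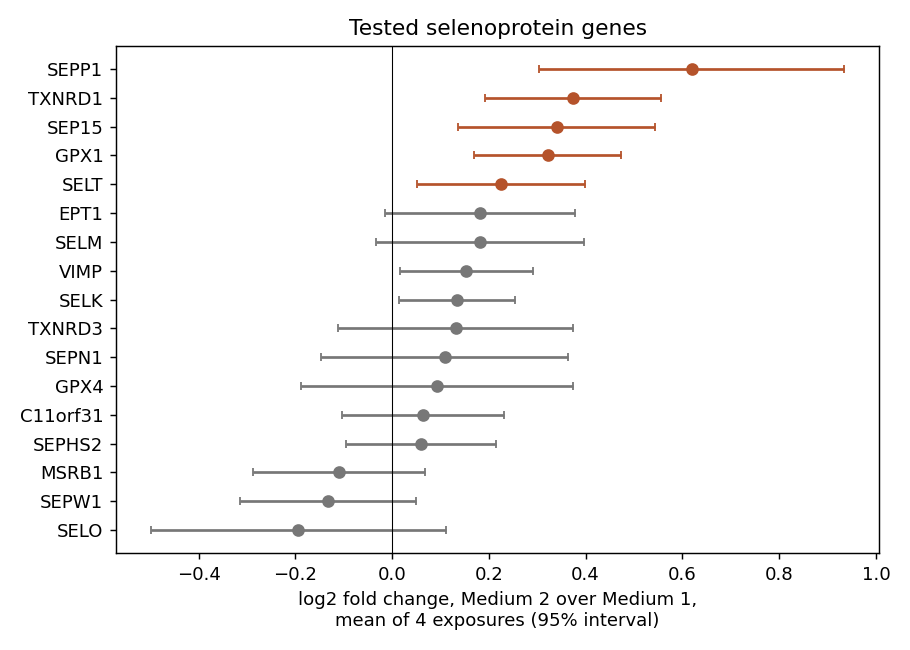
Log2 fold change of Medium 2 over Medium 1, averaged over 4 exposures (horizontal axis, with 95% intervals), for the 17 tested selenoprotein genes in descending order. The 5 coloured genes passed the threshold and all lie above 0, from 0.62 for SEPP1 to 0.23 for SELT, while SEPW1 (-0.13) and SELO (-0.19) lie below 0 without passing.

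Genes of selenocysteine use, glutathione, peroxide removal, ferroptosis and related transcription were described by the same contrast over the 4 exposures. In it 39% of all genes passed. Of 9 tested genes for selenocysteine synthesis, insertion and selenium uptake, 2 were lower in Medium 2 and 7 did not pass, with a median log2 fold change of -0.13. SCLY, the lyase that frees selenium from selenocysteine, fell by 0.76 (SE 0.13) to 7.94 ± 1.97 CPM in Medium 2, against 13.5 ± 4.22 CPM in Medium 1 (SD, n = 20 each). LRP8, a receptor that takes up SEPP1, fell by 0.20 (SE 0.07). Of 10 tested genes of glutathione synthesis and recycling 3 were higher and 7 did not pass. They were CHAC1, which degrades glutathione, by 2.12 (SE 0.16), SLC3A2, a subunit of the cystine transporter, by 0.36 (SE 0.08), and GSR, glutathione reductase, by 0.30 (SE 0.11). A list for peroxide and superoxide removal without selenium held 16 tested genes, among them the methionine sulfoxide reductases MSRA, MSRB2 and MSRB3. Of these 16, 7 were higher and 9 did not pass, with a median of 0.15. The 6 with the smallest p were PRDX5 (0.46), SRXN1 (0.41), SOD2 (0.26), PRDX1 (0.23), SOD1 (0.13) and TXN (0.30). Of 9 tested genes of lipid peroxidation and ferroptosis 4 were higher and 5 did not pass, namely NCOA4 (0.52), TFRC (0.21), GCH1 (0.39) and ACSL4 (0.21). Of 5 tested regulators of transcription linked to SEPP1 or GPX2, KEAP1 (0.34), FOXO3 (0.17) and NFE2L2 (0.23) were higher and 2 did not pass.

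The 5 tested genes differed in how they varied together, and GPX2 was too low to include. Over the 12 group means of log2 CPM, Pearson's r between SEPP1 and GPX1 was 0.41 and between SEPP1 and SEPW1 -0.14, while GPX4 and SEPW1 had -0.80. These are descriptions over 12 points that share a medium and a plate layout. For the same pairs, in that order, r within groups over the 60 libraries was 0.05, -0.05 and -0.31. Among 8684 genes with a mean of at least 10 CPM, the patterns most like SEPP1 over the 12 groups were those of VCPIP1 (0.90), FGF2 (0.89), BTBD1 (0.89), SIX4 (0.89) and RBAK (0.87). FGF2, for example, had 40.7 ± 6.97 CPM with kynurenic acid and 57.1 ± 9.11 CPM untreated in Medium 2, and 36.4 ± 4.54 CPM with kynurenic acid and 38.5 ± 3.42 CPM untreated in Medium 1 (SD, n = 5 each). Within groups, over the 60 libraries, r with SEPP1 was 0.00 for FGF2 and 0.03 for VCPIP1. GPX1 was most like AHCY (0.96), TMEM70 (0.94) and SRSF7 (0.93), but within groups these had r of -0.02, -0.01 and 0.07. GPX4 was most like MEIS3 (0.90), ZCCHC2 (0.89) and H6PD (0.86), and SEPHS2 like NUP205 (0.94), FAM131A (0.90) and SCRN1 (0.90). Within groups r was 0.27, 0.20 and 0.09 for those of GPX4, and 0.31, 0.37 and 0.23 for those of SEPHS2.

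SEPW1 was most like TUSC2 (0.97), TRMT12 (0.97) and NCBP2-AS2 (0.97) over the 12 groups, and the likeness was also there within groups, with r of 0.73, 0.72 and 0.80 over the 60 libraries. In the 6 libraries highest in SEPW1, TUSC2 ran from 76.4 to 125 CPM, against 40.4 to 96.0 CPM in the other 54. NCBP2-AS2 ran from 65.9 to 108 CPM there, against 40 to 80.6 CPM, and TRMT12 from 18.2 to 65.6 CPM, against 12.2 to 37.7 CPM. Well B2 held the highest level of all 3 genes and well F4 the lowest of the 6, with TRMT12 below the median of 21.2 CPM in the other 54.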

How the data were processed

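RNA of 60 spheroid samples was sequenced from transcript 3' ends with the QuantSeq FWD kit and molecular identifiers, from 48 ng of RNA and 18 PCR cycles, per the labels' protocols. The authors deposited 1 table of estimated counts per gene. The submitters' processing notes list Salmon 1.5.2, STAR, cutadapt 3.4, UMI-tools 1.1.2 and FastQC 0.11.9, and the build GRCh38, with no order or settings. Of all deposited values 10.1% were not whole, and they were rounded here before testing. The labels call the RNA cytoplasmic without naming a step that separates it.

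Columns of the table carry group and well, and the column spelled Kyn1uMM was read as kynurenine at 1 µM. The titles call the samples of each group biological replicates. Whether these are separate cultures is not known, so p-values cover only the spread between these samples. The 120 pairs of libraries within groups differed by more than sampling noise (chi-square per degree of freedom 2.21 to 20.8), so none is a copy of another. This does not show that they are separate cultures. Each library entered as its own replicate.

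Genes were kept by filterByExpr (minimum count 10, minimum total 15) and libraries scaled by TMM. With edgeR 4.0.16 in R 4.3.3, a quasi-likelihood model of 12 group means was fitted to all 60 libraries, and 28 contrasts were tested by two-sided F-tests. Their p-values were adjusted by Benjamini-Hochberg across the tested genes, at a threshold of 0.05. Tested on simulated data for the contrast over 4 exposures, the fit recovered 82 of 100 genes changed by 0.62 in log2 and 100 of 100 changed by 1.5. It made 12 false calls among the unchanged genes of 11241 run. The changed genes were drawn at random over all levels, so these shares do not describe a gene as low as SEPP1. Far fewer genes were changed there than passed in the data. Alternatives were RLE scaling, no filter, DESeq2 1.42.0, only the compared groups and each library left out. Plate row as a term and leaving out wells B2 and A7 were added after seeing the data.

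The 6 genes and all lists were chosen with earlier results of these data known. Named besides the 6 were list genes past the threshold over the 4 exposures, up to 6 per list and direction by p, and the 5 (for SEPP1) or 3 genes most alike over group means. Other genes named in a single contrast or for a DESeq2 call were named after their values were seen.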

Additional observations from a re-analysis of the deposited data

Results flagged for a closer look

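In 4 of 60 combinations of gene and group, 1 library stood apart from the other 4 of its group by more than the 95% critical value of Dixon's gap test, which chance alone gives in about 1 in 20 groups. SEPP1 was at 15.5 CPM in the butyrate library of Medium 2 in well G5, against 6.19 to 7.83 CPM in the others. GPX1 was at 39.8 CPM in the library with hemin and kynurenine of Medium 2 in well D8, against 55.4 to 61.6 CPM. SEPW1 was at 101 CPM in the kynurenine library of Medium 1 in well A3, against 117 to 120 CPM, and at 185 CPM in the library with hemin and kynurenine of Medium 1 in well F4, against 97.0 to 107 CPM.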

How the results depend on the processing

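No paired analysis was possible because the columns of the table carry group and well but no replicate number. Over the 4 exposures, the log2 value of Medium 2 over Medium 1 ran from 0.55 to 0.71 for SEPP1 and from 0.28 to 0.36 for GPX1 across all alternatives, and passed in each. That of GPX4 turned to -0.013 without wells B2 and A7. Other signs that turned belonged to values that had not passed. Between media these were GPX1 untreated (-0.056) and GPX4 with butyrate (0.14) with plate row as a term, and GPX4 with kynurenine (-0.22) without wells B2 and A7. With each library left out, values between media ran from -0.030 to 0.088 for GPX1 untreated, from -0.17 to 0.13 for GPX4 with butyrate and from -0.20 to 0.28 for GPX4 with kynurenine. For SEPHS2 they ran from -0.020 to 0.17 untreated, from -0.25 to 0.0076 with kynurenine and from -0.13 to 0.042 with hemin and kynurenine, and for SEPP1 with hemin from -0.051 to 0.26. Against untreated spheroids of Medium 1, SEPP1 ran from -0.20 to 0.31 with kynurenic acid, from -0.36 to 0.017 with butyrate and from -0.057 to 0.28 with hemin and kynurenine, and from -0.40 to 0.082 for kynurenic acid over kynurenine. Between media, SEPP1 with butyrate (1.13, edgeR adjusted p = 0.0601), GPX1 with hemin (0.45, 0.0708) and GPX1 with hemin and kynurenine (0.47, 0.0719) no longer passed in fits of only the compared groups. GPX1 also did not pass with hemin without the filter (0.45, 0.0575), nor with hemin and kynurenine with plate row as a term (0.39, 0.0743). The causes were not tested. The fit of only the compared groups gave no value for 5 of 174 results, where SEPP1 failed the filter. Against untreated spheroids of Medium 1 these were kynurenic acid, butyrate, and hemin with kynurenine. Between media they were hemin and kynurenic acid. Low counts of SEPP1 and GPX2 limit every value given for them.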
